A study of Mus musculus with 10 samples.

Results

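Supporting cells of the old mouse vestibule are the subject of what follows. They were chosen from the deposited counts as cells in which at least 3 of 6 supporting cell genes (Otog, Otogl, Otol1, Slitrk6, Agr3 and Rlbp1) and fewer than 3 of 6 hair cell (HC) genes (Myo6, Myo7a, Pou4f3, Tmc1, Kncn and Gfi1) had at least 1 unique molecular identifier (UMI), the tag that lets each captured transcript be counted once. A cell was considered if it held 200 genes or more, 1000 UMIs or more and a mitochondrial share under 25%, and 564 of the 10424 such vestibular cells met this rule. All libraries came from 22-month-old CBA/J mice of both sexes, with sensory epithelia of 7 to 8 mice pooled in each by the sample labels (the series' design text gives 7 mice, and 6 cochlear and 4 vestibular replicates where 5 of each are listed), and no group carried a treatment or an altered allele. CBA/J is an inbred strain in which inner ear function declines late in life. The vestibular organs and the cochlea were dissected and sequenced separately, as droplet (10x) single-cell libraries, and as only old mice are covered, no value is a change with age. Replicate 2 of each organ repeated replicate 1 (1633 of the 1641 vestibular barcodes and all 1313 cochlear barcodes of replicate 2 were also in replicate 1) and was left out, which gives 4 libraries per organ, replicates 1, 3, 4 and 5. All other pairs of libraries shared at most 41 barcodes and 0 of the chosen cells.

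Supporting cells surround each HC of the vestibular maculae and cristae, hold its base and apex in place, and form the tight apical seal between endolymph and perilymph. They secrete the proteins of the otolithic membrane and the cupula, take up potassium and glutamate around the HCs, and are coupled to one another by gap junctions. In the adult mouse utricle some of them can give rise to new type II HCs, and Notch, Wnt and Hippo signaling are known to act on that capacity. In the cochlea, supporting cells have other shapes and names (pillar, Deiters', inner border and inner phalangeal cells among them) and secrete the tectorial membrane.

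The supporting cells numbered 114, 219, 166 and 65 in vestibular replicates 1, 3, 4 and 5, out of 867, 5438, 2448 and 1671 kept cells. They made up 13.1% of replicate 1, with a 95% exact binomial interval of 10.97 to 15.6%. In replicate 3 they made up 4.03% (interval 3.52 to 4.58%), while replicate 4 had 6.78% (5.82 to 7.85%) and replicate 5 had 3.89% (3.01 to 4.93%). The share in replicate 1 lay above the other libraries beyond counting error, which is the only error these intervals cover. The median supporting cell held 2092, 3455, 2612.5 and 2997 UMIs in the 4 libraries, and all of them together held 2520238 UMIs. Just inside the rule, 185 cells had exactly 3 of the 6 supporting cell genes, and just outside it, 261 cells had exactly 2. On the side of the HC genes, 250 of the supporting cells had none of the 6, 262 had 1 and 52 had 2, while 19 cells with at least 3 supporting cell genes were kept out with exactly 3 HC genes. In all, 303 cells met both the supporting cell and the HC criterion and were left out, at a median of 10943 UMIs per cell against 2718.5 in the supporting cells.

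The 6 genes that chose the cells are described here without a test. Levels are counts per 1000000 UMIs (CPM) of the supporting cells of a library, and since each transcript is counted at its 3' end, they do not scale with gene length. Otog, which encodes otogelin of the otolithic membrane and cupula, had 4105, 2088, 2266 and 2215 CPM in replicates 1, 3, 4 and 5, and Otogl, its paralog, 658, 483, 363 and 553 CPM. Otol1, which encodes the otoconial scaffold protein otolin-1, had 1511, 765, 884 and 1091 CPM. Replicate 1 was the highest library for all 3 of these matrix genes. Agr3, a protein disulfide isomerase family member, had 663, 618, 562 and 542 CPM, Slitrk6, a neuronal adhesion and trophic receptor, 471, 449, 431 and 434 CPM, and Rlbp1, a retinaldehyde binding protein, 201, 159, 165 and 126 CPM. Of the HC genes, Myo6 had a UMI in 50.2% of the supporting cells, against 13.7% of vestibular cells with at least 3 of 6 macrophage markers (median depth 2560.5 UMIs), while the other 5 had one in 2.13% to 3.72% of them.

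Genes outside the rule were then used to check the label. Sox2, the transcription factor that marks supporting cells and type II HCs, had 413, 219, 246 and 200.3 CPM in replicates 1, 3, 4 and 5, against 108 ± 7.69 (SD, n = 4) in cells with at least 3 HC genes and fewer than 3 supporting cell genes. A Sox2 UMI was found in 47.9% of the supporting cells and in 0.781% of the macrophage rule cells. Sox9 and Sox10, transcription factors of the otic epithelium, were detected in 62.2% and 53.4% of the supporting cells and in 6.25% and 2.73% of the macrophage rule cells. The glutamate transporter gene Slc1a3 was detected in 77.3% against 18.8%, the Notch ligand gene Jag1 in 21.1% against 1.17%, and the Notch modifier Lfng in 21.5% against 10.2%. Of 28 supporting cell identity genes, 23 had a higher mean level in the supporting cells than in all other kept vestibular cells. These differences are descriptions, because the cells were chosen by their expression.

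**Figure D1:**
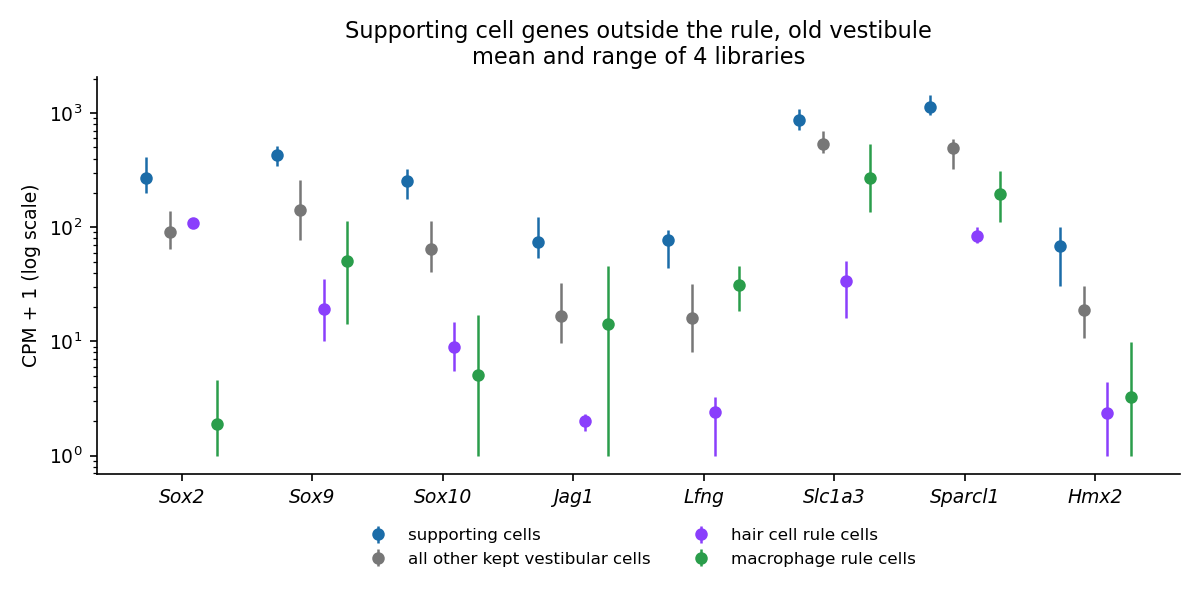
Level of 8 supporting cell genes that the rule did not use (CPM + 1, log axis) in 4 vestibular populations, as the mean of 4 libraries with a line from the lowest to the highest library. The supporting cells had the highest mean for each of the 8 genes, and Sox2 was at 269.7 ± 97.4 CPM (SD, n = 4) in them.

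Cells with several markers of another type were few. Of the 564 supporting cells, 14 had at least 3 of the 6 markers of at least 1 of 6 other types (macrophages, fibrocytes and fibroblasts, myelinating glia, endothelium, dark or marginal cells and melanocytes): 7 of fibrocytes and fibroblasts, 3 of macrophages, 2 each of myelinating glia and melanocytes, and 1 of endothelium, with 1 cell counted under more than 1 type. The summed macrophage markers stood at 0, 81, 1.48 and 119 CPM in replicates 1, 3, 4 and 5, with Mrc1 the most abundant at 0, 3.31, 0 and 59.4 CPM. The 6 granulocyte markers, of which 3 supporting cells had at least 3, summed to 2.75, 804, 17.7 and 3932 CPM, with S100a9 the most abundant at 0, 344, 11.8 and 1929 CPM and 8310.0 ± 8310.4 (SD, n = 4) in the other kept vestibular cells. Fibrocyte and melanocyte markers, none of which was above the other kept vestibular cells in mean level, still had UMIs: the fibrocyte gene Coch had 506 ± 96.2 CPM in the supporting cells and 4976 ± 867 in the other kept vestibular cells (SD, n = 4), and Ptgds had 4781 ± 1280.4 against 43639 ± 8107. Of the glial markers, Pllp and Mag stood above the other vestibular cells, Pllp with 42.1 ± 22.3 against 10.3 ± 2.03 CPM, and so did 2 of the 6 dark cell markers, the more abundant being Kcnq1 with 25 ± 19.2 against 8.59 ± 2.32 CPM. Hemoglobin genes differed by library, with Hbb-bs at 35.8, 2140.4, 115 and 45773 CPM, and 13 supporting cells had at least 3 red blood cell genes. The dark cell markers Bsnd and Esrrb, the melanocyte markers Tyr and Tyrp1 and the glial marker Prx had 0 UMIs in all 564 cells.

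Among genes outside the rule, those with the largest ratio to all other kept vestibular cells, given as a description, included transporters and secreted proteins. Slc26a4 (ENSMUSG00000020651, chromosome 12, 31519827 to 31559969, minus strand, GRCm38), which encodes the anion exchanger pendrin, led with 289, 309, 161 and 282 CPM, 11.9 times the level in the other cells. Mia, a small secreted protein first known from cartilage and melanoma, had 4694, 4547, 5181 and 3309 CPM, and Bricd5, a BRICHOS domain gene, 1503, 1609, 2950.5 and 994 CPM. Kcnj16, an inwardly rectifying potassium channel subunit, had 531, 248, 391 and 271 CPM, and Cox4i2, an isoform of a cytochrome c oxidase subunit, 149, 125, 103 and 122 CPM. Cntn1, a neural cell adhesion molecule, had 592, 356, 360.0 and 393 CPM and Cspg5, a chondroitin sulfate proteoglycan, 459.8, 315, 399.8 and 286 CPM. The other leading genes were Gm13782, Muc15, Scrg1, Gm266, Fndc7, Bdh2, Rflnb and Cpxm2, of which Rflnb, encoding refilin B, was the most widely detected (89% of cells) and had 2288, 1341, 2096 and 1739.8 CPM. Each of the 15 was above the other vestibular cells by at least 6.66 times. The most abundant nuclear genes, leaving out those with the Rpl and Rps symbols of ribosomal proteins, were the nuclear RNA Malat1 (28368 ± 4061 CPM, SD, n = 4), Gm42418 (16319 ± 12069 CPM), which overlaps ribosomal RNA, Hbb-bs, the calcium binding protein gene S100a1 (6230.3 ± 731 CPM), Ptgds, the protease inhibitor gene Cst3 (4550.5 ± 805 CPM), Mia, Hba-a1, Itm2b (4018 ± 625 CPM) and Fau (3710.2 ± 818 CPM), which encodes a ubiquitin-like protein fused to a ribosomal protein.

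The supporting cells were not uniform. Clustered on their own, they fell into 4 subclusters of 323, 103, 93 and 45 cells, each present in all 4 libraries, and the genes that set them apart are given without a test. Subcluster 1, with 57.3% of the cells, was led after Hbb-bs by Gpm6a, Igfbp3, Dkk3, Liph, Tstd1, Cox4i2, Fibin, Spock1 and Papss2. Dkk3, a secreted protein of the Dickkopf family, had a UMI in 77.4% of its cells and a level of 893 CPM against 118 in the other supporting cells. Otol1 was found in 91.3% of its cells and Sox2 in 58.5%. The median mitochondrial share was 12.4% in subcluster 1, against 7.19%, 7.78% and 5.3% in subclusters 2, 3 and 4. Hbb-bs led by ratio with 11442 CPM, or 2334 CPM without replicate 5, but its share of cells, 39%, was close to the 39.8% of subcluster 2.

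Subcluster 3, with 16.5% of the cells, was led by Hhla1 (74.2% of cells, 1466 CPM against 11.2), Zpld1, Sphkap, Penk, Cavin2, Tmprss9, Slc18a2, Gpc3, Exoc3l4 and Nrxn3. Zpld1, a zona pellucida domain protein of the cupula over the cristae, had a UMI in 58.1% of its cells and in 0.31% of subcluster 1. Penk encodes the precursor of the enkephalin peptides and Slc18a2 a vesicular monoamine transporter. Of the genes of otoconia, the mineral of the maculae, Otol1, which the rule used, was found in 29% of its cells, against 91.3%, 82.5% and 91.1% of subclusters 1, 2 and 4. Oc90, which encodes the otoconial protein otoconin-90, ran the other way, in 15.1% of its cells and in 1.24%, 0 and 0% of the others. Of its cells in replicates 1, 3, 4 and 5 the shares with Oc90 were 25, 10.5, 10.0 and 0%, and 8.77% without replicate 1. Sox2 was found in 57%, Slitrk6 in 71% and Jag1 in 36.6%.

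Subclusters 2 and 4 went against the label in part. In subcluster 2 Slitrk6 was found in 19.4% of cells, Sox2 in 21.4% and Jag1 in 5.83%, and in subcluster 4 in 4.44%, 13.3% and 2.22%, although the median cell of subcluster 4 was the deepest at 8564 UMIs. Slitrk6 is a gene of the rule, whereas Sox2 and Jag1 are not. Sox10 was not lower there, found in 52.4% and 84.4% of subclusters 2 and 4 against 50.2% and 50.5% of 1 and 3, and Notch1 was found in 40.8% and 68.9% against 38.7% and 24.7%. Together they held 148 cells, 26.2% of the total, and they are called here by number. Subcluster 2 was led by Sostdc1, a secreted BMP and Wnt antagonist, Abca13, Slc26a4 (69.9% of cells, 995 CPM against 105), the class I antigen gene H2-K1, Crip1, Ifitm3, Rarres2, Spock2, Tmem176a and Tmem176b. Subcluster 4 was led by Fn1, Baalc, the apolipoprotein genes Apoc3 and Apoa4 (77.8% of cells, 715 CPM against 2.45), Cnr1, the urea transporter gene Slc14a1, Apobec2, Vit, Spon1 and Ctxn3. Mia was found in 94.2% of subcluster 2 and in all cells of subcluster 4, against 48.9% and 31.2% of subclusters 1 and 3. With each cell thinned to 1000 UMIs, Slitrk6 was found in 46.4%, 4.85%, 49.5% and 2.22% of subclusters 1 to 4 and Mia in 29.1%, 90.3%, 14% and again all. Sox2 was then found in 27.6%, 6.8%, 25.8% and 4.44% and Sox10 in 20.1%, 21.4%, 23.7% and 28.9%. These 148 cells also carried much of some genes given above as leading. Subcluster 2 held 67.3% of the Slc26a4 UMIs, subcluster 4 64.6% of those of Bricd5 and 59.9% of those of Scrg1, and Mia came from both, with 43.7% and 42.9%. Without the 148 cells the mean level went from 260.2 to 90.4 CPM for Slc26a4 and from 4433 to 984 CPM for Mia. It went from 1764 to 768 CPM for Bricd5 and from 263 to 128 CPM for Scrg1. For the other 11 of the 15 it moved by less than 1.5 times. Malat1, given above as the most abundant gene, went from 28370 to 13100 CPM, below Gm42418 (19060 CPM) and Hbb-bs (14650 CPM). Otog was found in at least 93.2% of the cells of every subcluster, but as a gene of the rule it cannot speak to the label. Its level was 2951, 1122, 4595 and 997 CPM in subclusters 1 to 4.

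**Figure D2:**
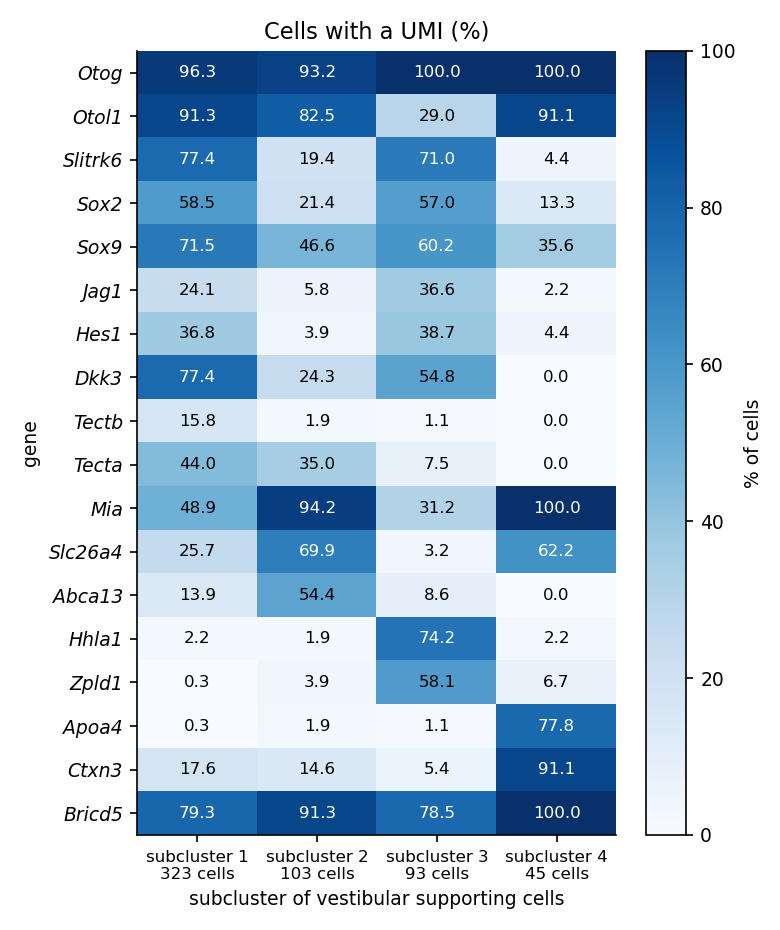
Share of cells with at least 1 UMI of each of 18 genes in the 4 subclusters of the vestibular supporting cells, with the percentage written in each field. Slitrk6, Sox2, Jag1 and Hes1 were found in fewer cells of subclusters 2 and 4, Hhla1 and Zpld1 in most cells of subcluster 3 alone, and Apoa4 and Ctxn3 in most cells of subcluster 4 alone.

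Genes of sensory subregions divided the cells further. Tectb, which encodes beta-tectorin and marks the striola, the central strip of the maculae, had a UMI in 54 supporting cells, 51 of them in subcluster 1, and Zpld1 had one in 62, of which 54 were in subcluster 3. A single cell had both. Cyp26b1, the retinoic acid degrading enzyme of the striola, was found in 18.5% of the cells with a Tectb UMI and in 3.92% of those without, at median depths of 2550.5 and 2741 UMIs. Aldh1a3, which makes retinoic acid, was found in 18.5% and 42.4%, and Slc26a4 in 7.41% and 35.7%. The cells without Tectb included 101 of subcluster 2 and 45 of subcluster 4. Slc26a4 was found in 69.9% and 62.2% of these subclusters, against 25.7% of subcluster 1. The cells with Tectb numbered 4, 27, 20 and 3 in replicates 1, 3, 4 and 5, so that replicates 1 and 5 added 7 of the 54.

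The rule was next applied in the same words to the cochlea, to ask in which genes the vestibular supporting cells differed from cochlear cells picked the same way. There 337 of 7272 kept cells met it, 22, 213, 47 and 55 in replicates 1, 3, 4 and 5, and 232 of them had exactly 3 of the 6 genes. Otol1 had a UMI in 1.78% of the 337, Agr3 in 32% and Rlbp1 in 42.7%. These cochlear cells carried Sox2 in 70.9%, Sox9 in 71.2% and Sox10 in 75.7%. They were deeper, with medians of 4022.5, 7051, 9657 and 6251 UMIs per cell. UMIs were summed per library, 4 against 4, and tested in edgeR (quasi-likelihood, with p-values adjusted after Benjamini and Hochberg). Of 6609 genes tested outside the rule, 1703 (25.8%) passed an adjusted p of 0.05, 1011 (15.3%) of them higher in the vestibule and 692 (10.5%) higher in the cochlea. The change was over 2-fold for 745 and 437 of these. In 1702 genes (25.8%) the libraries of the organs did not overlap. Of the genes called, 198 were higher in the vestibular supporting cells and yet below the other cells of the vestibule, and 95 likewise in the cochlea. The labels call each library a biological replicate, and the p-values measure the spread between these pools of mice.

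**Figure D3:**
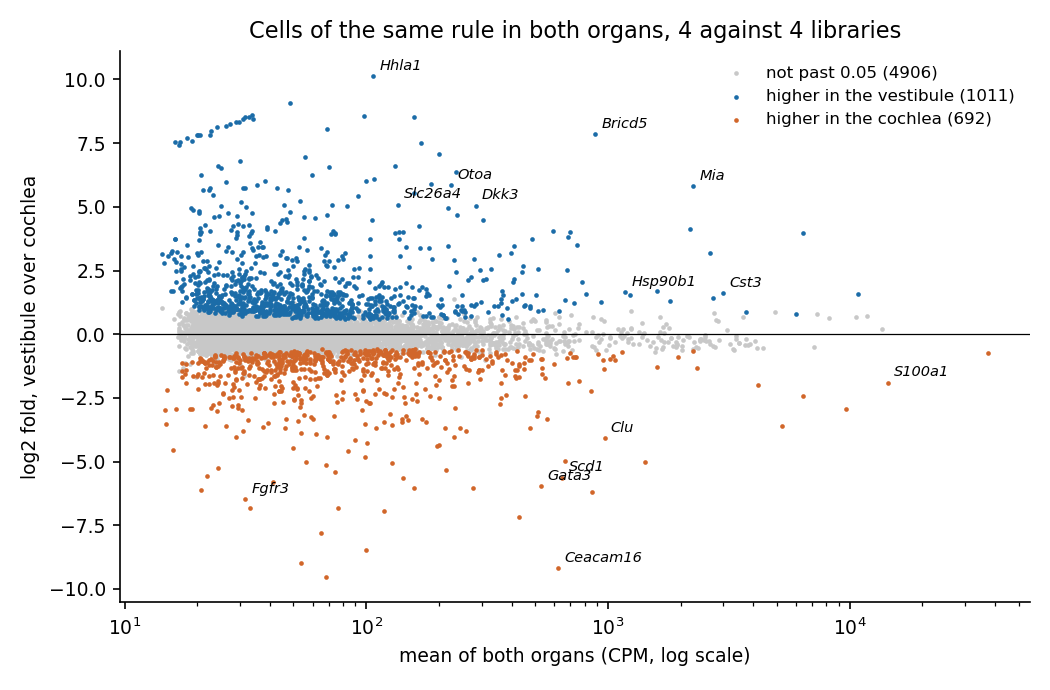
Log2 fold of the vestibular supporting cells over cochlear cells of the same rule (y axis) against the mean level of both (x axis, CPM, log scale), 1 point per gene outside the rule. Of 6609 genes, 1011 were higher in the vestibule and 692 in the cochlea at an adjusted p of 0.05, and the largest fitted folds are of genes at or near 0 in one organ.

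The genes with the largest difference were at or near 0 in the cochlea, so their folds are bounds against 3 UMIs over the 4 libraries together. Hhla1 (ENSMUSG00000072511, chromosome 15, 65922443 to 65976804, minus strand, GRCm38), the leading gene of subcluster 3, had 363, 111, 196 and 185 CPM in the vestibular supporting cells and 0 UMIs in the cochlear cells, at least 183-fold higher (adjusted p = 3.5e-08). Zpld1 (ENSMUSG00000064310, chromosome 16, 55225175 to 55297986, minus strand) had 77.1, 34.7, 82.6 and 77.9 CPM and was at least 59.9-fold higher. Hmx2, a homeobox factor required for the vestibular organs, had 71.6, 68.6, 98.8 and 29.7 CPM and was at least 75-fold higher, and its neighbour Hmx3, with 33, 33.9, 59 and 33.4 CPM, at least 41.6-fold. All 4 vestibular libraries were above 0 for each of these 4 genes, and all 4 cochlear libraries were at 0. For Hhla1, Zpld1 and Hmx2 the rule that named them required that the libraries not overlap. Abca13, an ATP-binding cassette gene, was at least 105-fold higher, Cidea, a lipid droplet protein gene, at least 71.7-fold, Bpifb4 at least 61.9-fold, and the unnamed genes Gm43154 and Gm10648 each at least 68-fold. D430041D05Rik had 474 UMIs against 1, a ratio of 579 (exact counting interval, 103 to 22933), and Ctxn3 864 against 2, a ratio of 528 (146 to 4367). Several of these values rested on the subclusters that went against the label: 762 of the 864 Ctxn3 UMIs came from subcluster 4 and 187 of the 258 Abca13 UMIs from subcluster 2. Without both subclusters the ratio of Ctxn3 was 81.4, and the bounds were 45.9-fold for Abca13, 49.1-fold for Hmx2, 36.2-fold for Cidea, 30.4-fold for Gm43154 and 12.9-fold for Gm10648. The bound rose to 288-fold for Hhla1 and 81.4-fold for Zpld1.

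In the other direction, Ceacam16 (ENSMUSG00000014686, chromosome 7, 19852097 to 19861299, minus strand), a tectorial membrane glycoprotein gene, had 2.75, 1.65, 2.95 and 0 CPM in the vestibular supporting cells and 1840.2, 1089, 1269.8 and 784 CPM in the cochlear cells. Its log2 fold of vestibule over cochlea was -9.18 ± 0.44 (SE, adjusted p = 1.3e-10). Fgfr3, the fibroblast growth factor receptor of pillar and Deiters' cells, had 149, 44.9, 37.9 and 19.9 CPM in the cochlear cells and 1 UMI in all vestibular supporting cells, a ratio of 116 (20.5 to 4620). Fabp3, a fatty acid binding protein gene, had 2.75, 11.6, 0 and 3.71 CPM against 624, 1082, 988 and 702 CPM. No vestibular library reached a cochlear one in these 3 genes, which the rule that named them required. The unnamed gene 6330411D24Rik was at least 107-fold and the BMP family ligand gene Gdf6 at least 64.9-fold higher in the cochlear cells. Rbp7, a retinol binding protein gene, Dgkb, a diacylglycerol kinase gene, Hamp2 and 9230102O04Rik had 1, 1, 1 and 3 vestibular UMIs and were higher by ratios of 555, 313, 142 and 110. Without subclusters 2 and 4 these ratios were weaker. Given as vestibule over cochlea, they were then 0.00286, 0.00508, 0.0112 and 0.0144. Plbd1 had 0, 3.31, 0 and 0 CPM against 580.3, 162, 65 and 141 CPM.

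Transcription factors and other identity genes split by organ. Of 24 tested, 8 were higher in the vestibule (Hmx2, Hmx3, Prox1, Sparcl1, Epcam, Cdh2, Tbx2 and Eya1) and 7 in the cochlea (Fgfr3, Rorb, Gata3, Gata2, S100a1, Isl1 and Eya4), with a median log2 fold of 0.32 beside 0.033 over all genes tested and shares of 15.3% and 10.5% called in each direction. Gata3, a zinc finger factor of the cochlear epithelium, had 19.3, 22.3, 14.8 and 3.71 CPM in the vestibule and 1674, 730.0, 918 and 861 CPM in the cochlea (log2 fold -5.96 ± 0.37, adjusted p = 1.2e-09). Rorb, a nuclear receptor gene, had 2.75, 6.61, 5.9 and 26 against 630.0, 584, 443 and 523 CPM, and S100a1 6549, 6269, 6898 and 5205 against 18154, 26080.2, 22299 and 23654 CPM. The homeobox factor gene Prox1 and Fgfr3 were both among the genes of an alternative marker rule for the cochlea. Prox1 went the other way from Fgfr3, with 85.3, 63.7, 42.8 and 33.4 CPM in the vestibule and 5.53, 3.17, 0 and 2.21 CPM in the cochlea. The core factors did not pass the test: the log2 fold of Sox2 was -0.05 ± 0.24 (adjusted p = 0.913), of Sox9 0.26 ± 0.28 (adjusted p = 0.572) and of Sox10 -0.27 ± 0.23 (adjusted p = 0.459).

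Extracellular matrix genes of the structures that lie over the HCs also divided. Of 12 tested genes of otolithic, cupular and tectorial matrices, 7 were higher in the vestibule (Zpld1, Tecta, Otoa, Col9a2, Col11a1, Col9a1 and Noxo1) and 1, Ceacam16, in the cochlea, the latter near the 10.5% of all genes and the former above 15.3%, with a median log2 fold of 2.25. With each cell thinned to 1000 UMIs only 5 were tested, 2 of them higher in the vestibule and 2 in the cochlea. Under the other alternatives 6 to 10 were higher in the vestibule and 1 in the cochlea. Otoa, which encodes otoancorin, the anchor of acellular gels to the epithelium, had 520.3, 410.1, 372 and 471 CPM against 0, 6.87, 7.23 and 11 CPM, 57.9-fold higher (adjusted p = 4.47e-10). Tecta, which encodes alpha-tectorin, had 146, 168, 114 and 122 CPM in the vestibule and 1 UMI in the cochlear cells, a ratio of 447 (79.8 to 17718). Tectb had 146, 495, 519 and 89 CPM against 437, 48.1, 93.9 and 15.5 CPM, and the libraries overlapped (adjusted p = 0.125). Without cochlear replicate 1, which had 22 cells, Tectb passed at a log2 fold of 2.53, as it did in 5 of the other alternatives.

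The list of secretory pathway genes, like the other lists, was chosen with earlier results of these data known. Most of its tested genes were higher in the vestibule. Of 15 tested, 12 were higher there and 0 in the cochlea, against 15.3% and 10.5% of all genes, and the median log2 fold was 1.17. The count in the cochlea was also 0 at an unadjusted p of 0.05 and in DESeq2, which called 11 in the vestibule. In 7 alternatives, among them the loss of any 1 vestibular library or of cochlear replicate 1, 1 gene that was not tested otherwise, the disulfide isomerase family member Agr2, was higher in the cochlea. Hsp90b1, the endoplasmic reticulum (ER) chaperone GRP94, had 1968, 1659, 1865 and 1739.8 CPM in vestibular replicates 1, 3, 4 and 5 and 508, 456, 625 and 636 CPM in the cochlear ones. Hspa5, the ER chaperone BiP, had 1101, 942, 867 and 935 against 420.0, 325, 347 and 375 CPM, 2.57-fold higher (adjusted p = 8.26e-05). Calr, the chaperone calreticulin, was 3.28-fold higher, the BiP cochaperone gene Sdf2l1 3.6-fold, and the disulfide isomerase genes Pdia3, Pdia6 and P4hb 2.89-, 2.25- and 2.22-fold. Of the 17 members in the files, 15 were also above the other kept vestibular cells in mean level, as a description. The summed level of the list was 9418, 7073, 6941 and 7044 CPM in the vestibule and 3211, 3046, 3181 and 3476 CPM in the cochlea, with no overlap.

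**Figure D4:**
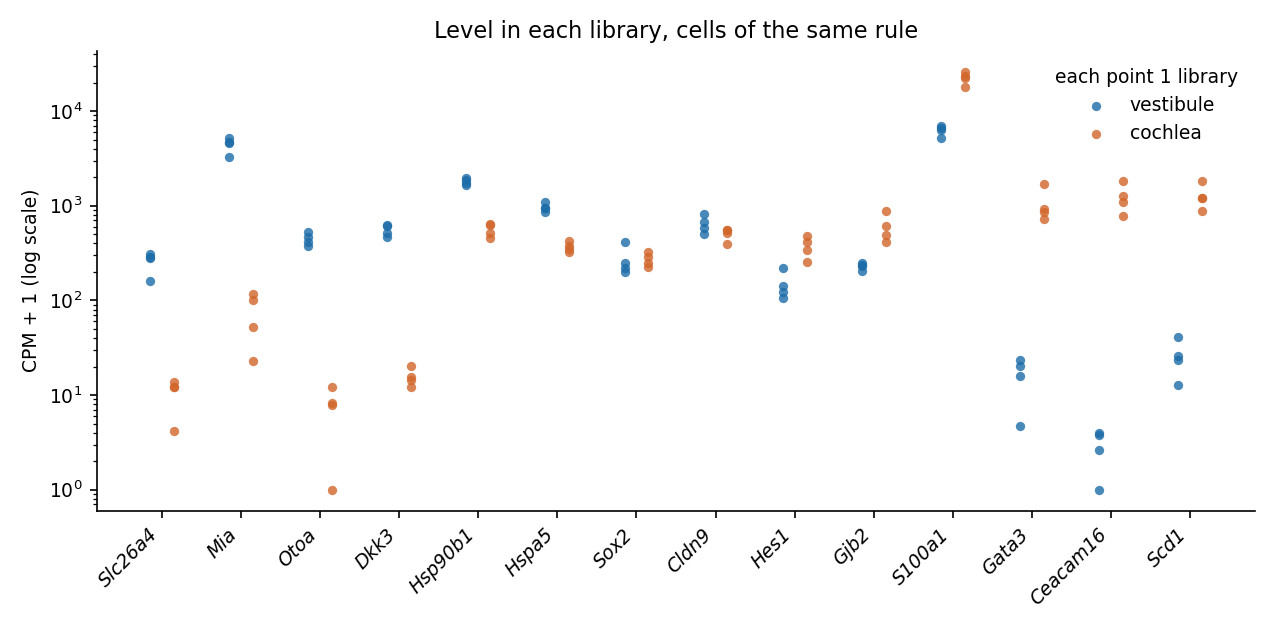
CPM + 1 (log axis) of 14 genes in each of the 4 vestibular (blue) and 4 cochlear (orange) libraries, 1 point per library. The organs did not overlap in any of these genes but Sox2 and Cldn9, whose adjusted p were 0.913 and 0.337. The 14 genes were picked for display, whereas over all 6609 genes tested the libraries did not overlap in 1702 (25.8%).

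In Wnt and Hippo signaling, 10 of 21 tested genes were higher in the vestibule (Dkk3, Fzd7, Sfrp1, Frzb, Lgr6, Znrf3, Axin2, Lgr4, Fzd6 and Tead1) and 2 in the cochlea (Tcf7l2 and Wwtr1), beside 15.3% and 10.5% of all genes, so that the cochlear count was near the latter share. Dkk3 had the largest fold, at 622, 470.4, 509 and 612 against 11.1, 19, 14.5 and 13.2 CPM (33-fold, adjusted p = 4.35e-10). Fzd7, a Frizzled receptor gene, had 157, 98.4, 53.1 and 66.8 against 55.3, 15.8, 14.5 and 13.2 CPM (4.73-fold), and Sfrp1, a secreted Frizzled-related inhibitor, 776, 617, 733 and 575 against 138, 134, 172 and 132 CPM (4.54-fold). Axin2, a target of Wnt signaling, had 71.6, 70.3, 64.9 and 63.1 against 38.7, 27.5, 34.3 and 26.5 CPM. The Wnt effector gene Tcf7l2 was 4.21-fold and the Hippo coactivator gene Wwtr1 2.55-fold higher in the cochlea. For Tcf7l2 vestibular replicate 5 stood apart at 29.7 CPM, where the vestibular mean was 13 CPM. For Wwtr1 cochlear replicate 1 did, at 82.9 CPM. Lgr5 had 0 UMIs in the vestibular supporting cells. Without vestibular replicate 1, 5 genes were higher in the cochlea, with Ccn1, Ccn2 and Lgr5 added.

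In the Notch pathway 0 of 14 tested genes were higher in the vestibule in edgeR and in DESeq2 (1 in each at an unadjusted p of 0.05), and 4 were higher in the cochlea, all of them targets: Hes1, Heyl, Hey1 and Hey2. Over all genes the shares were 15.3% and 10.5%. Hes1 had 220.2, 121, 142 and 104 CPM in the vestibule and 481, 254, 338 and 413 CPM in the cochlea (log2 fold -1.37 ± 0.26, adjusted p = 0.000417). The ligand gene Jag1 had a log2 fold of -0.41 ± 0.39 (adjusted p = 0.485) and the receptor gene Notch1, the most abundant member, 0.77 ± 0.28 (adjusted p = 0.0529). Notch1 and Adam10, which encodes a protease that cleaves Notch receptors, were called higher in the vestibule without cochlear replicate 1, 1 gene was in 8 other alternatives, and Dll1 and Jag2 were without a filter on low counts. One of these, without subclusters 2 and 4, a choice made after seeing the data, left 1 Notch gene higher in the cochlea, as did the rule of at least 4 of 6 genes. Without those subclusters the log2 fold was -0.75 for Hes1 (adjusted p = 0.0432) and -0.66 for Heyl, from -1.30 with them, and Heyl was no longer called (adjusted p = 0.124).

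Genes that handle ions, water and small molecules went both ways. Of 23 tested transport genes, 7 were higher in the vestibule and 9 in the cochlea, where all genes gave 15.3% and 10.5%. Slc26a4 was 34-fold higher in the vestibule (adjusted p = 1.03e-08), and 12.1-fold without subclusters 2 and 4. Aqp11, an aquaporin gene, was 28.5-fold and the potassium-chloride cotransporter gene Slc12a7 14-fold higher in the cochlea. Both gap junction genes tested were higher in the cochlea: Gjb6 with 201, 166, 125 and 115 against 718, 357, 322 and 311 CPM, and Gjb2 with 228, 236, 205 and 245 against 873, 489, 605 and 417 CPM.

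In retinoid handling 5 of 9 tested genes were higher in the vestibule (Aldh1a3, Rdh10, Dhrs3 and Aldh1a1 among them) and 1, Crabp2, in the cochlea, which for the latter is near the share over all genes (15.3% and 10.5%). Aldh1a3 had 195, 197, 226 and 111 against 5.53, 6.34, 0 and 0 CPM. In the list of junctions and polarity 9 of 22 were higher in the vestibule and 2 in the cochlea, of which the second count was near the 10.5% of all genes. The claudin gene Cldn10 was 19-fold and the planar polarity gene Celsr1 7.27-fold higher in the vestibule, and the tight junction genes Cldn14 and Ildr1, both known from deafness, 4.31- and 2.16-fold higher in the cochlea. Among keratins and cytoskeletal genes 2 of 16, Krt8 and Krt18, were higher in the vestibule and 5, Krt19, Vim, Tmsb10, Tmsb4x and Map1b, in the cochlea, the first count being slightly below the 15.3% of all genes. Vim had 19.3, 40.5, 20.7 and 63.1 against 193, 167, 163 and 113 CPM.

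Of the immediate early and stress genes, 8 of 12 tested were higher in the cochlea (Dusp1, Fos, Junb, Egr1, Jun, Ier2, Zfp36 and Jund) and 1, the small heat shock protein gene Hspb1, in the vestibule, against 10.5% and 15.3% of all genes. The summed level of the list overlapped, at 1429, 1693, 1437 and 964 CPM in the vestibule and 1155, 1802, 4505 and 1559 CPM in the cochlea, with Hsp90aa1, a heat shock protein gene, the most abundant. Fos had 11, 10.7, 11.8 and 14.8 CPM in the vestibule and 33.2, 53.9, 312 and 24.3 CPM in the cochlea, where replicate 4 was the highest. Without cochlear replicate 4 the median log2 fold of the list was -1.18, from -1.85, and 7 of 11 tested genes were higher in the cochlea. In the other kept cells, for which no test was run, Fos had 28 ± 15.6 CPM in the vestibule and 126 ± 124 in the cochlea (SD, n = 4). Of 10 cell cycle and senescence genes, 3 were higher in the vestibule (Cdkn1c, Lmna and Rb1, all genes 15.3%) and 2 in the cochlea (all genes 10.5%), the cyclin-dependent kinase inhibitor genes Cdkn1b (60.6, 118, 124 and 141 against 359, 511, 835 and 739.7 CPM) and Cdkn1a. Rb1 lost its call under 7 alternatives, among them without vestibular replicate 5 and without cochlear replicates 3, 4 or 5 (log2 folds 0.48, 0.75, 0.70 and 0.77). Of 14 metallothionein and antioxidant genes, Mt1 and Nfe2l2 were higher in the vestibule and Prdx6 in the cochlea, near the shares of 15.3% and 10.5% over all genes. These counts were 3 and 4 without cochlear replicate 1 and 4 and 1 without cochlear replicate 3.

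Of 7 antigen presentation and complement genes, H2-K1 and B2m were higher in the vestibule and Cd59a in the cochlea, with 15.3% and 10.5% called over all genes. H2-K1 had 198, 667, 189 and 115 against 122, 107, 108 and 117 CPM, and both H2-K1 and B2m lost the call without vestibular replicate 3 (log2 folds 0.53 and 0.77) and without subclusters 2 and 4 (0.41 and 0.79). Of 8 lipid handling genes, Apod and Apoe were higher in the vestibule and Fabp3, Scd1, Clu and Fabp7 in the cochlea, beside shares of 15.3% and 10.5% over all genes. Scd1, a fatty acid desaturase gene, had 24.8, 39.7, 11.8 and 22.3 against 1802, 1200.1, 881 and 1206 CPM, and Clu, which encodes clusterin, 90.8, 141, 73.8 and 134 against 2553, 2361, 1176 and 1219 CPM. Apoe had 2458, 2665, 3338 and 1376 against 210.0, 1082, 735 and 852 CPM, with 4975 ± 1097 CPM (SD, n = 4) in the other vestibular cells, and was no longer called without subclusters 2 and 4 (log2 fold 0.28). Without these subclusters the fold of some other genes moved by over 1.5 times with the call kept. The log2 fold went from -3.42 to -5.00 for Crabp2, from -1.78 to -3.59 for Cd59a and from -3.26 to -4.07 for Fos. It went from 4.01 to 2.46 for Hspb1 and from 2.23 to 1.25 for Mt1. For Rorb it went from -6.03 to -5.37 and for Aqp11 from -4.83 to -4.22. Both values for Fos include cochlear replicate 4, which stood apart at 312 CPM.

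**Figure D5:**
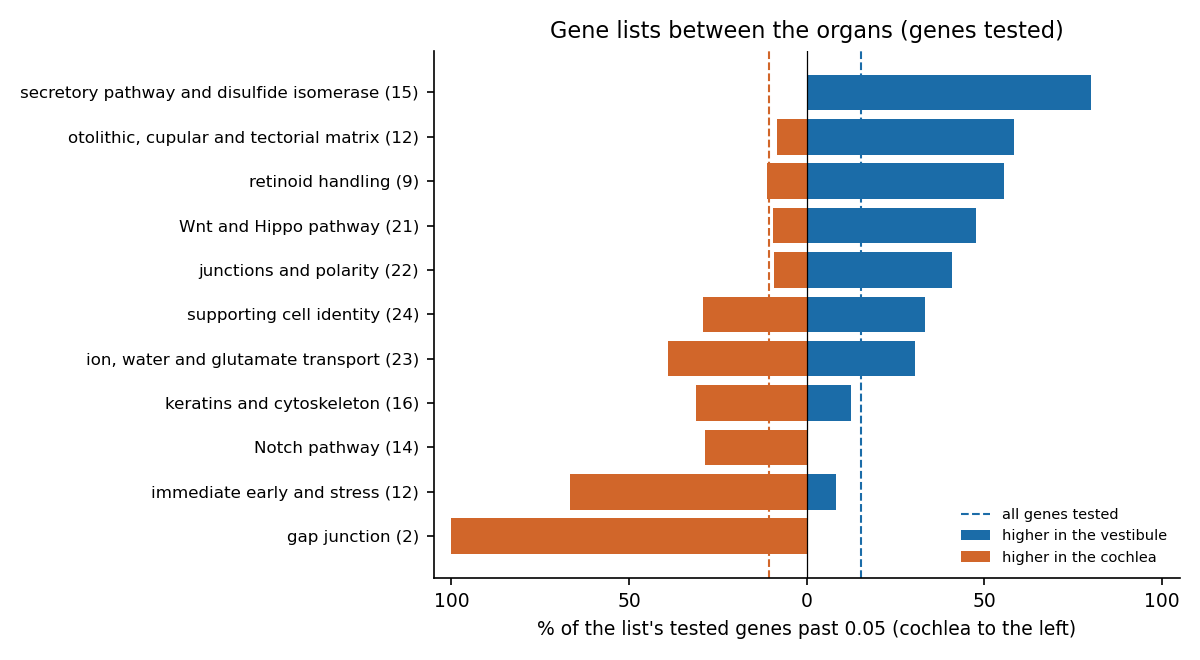
Percent of the tested genes of 11 lists that passed an adjusted p of 0.05, higher in the vestibule to the right and higher in the cochlea to the left, with the number tested after each name. Dashed lines mark 15.3% and 10.5%, the same shares over all 6609 genes, and the list of the secretory pathway reached 80.0% to the right with none to the left.

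Markers of other cells moved with some of these results. Coch, Ptgds and the hemoglobin genes Hba-a1, Hbb-bs and Hbb-bt were higher in the vestibular supporting cells, and each was higher still in the other kept vestibular cells, where Hbb-bs had 35794 ± 20982 CPM. Of 4 tested HC genes outside the rule, 2 (Otof and Espn) were higher in the vestibule and 0 in the cochlea. Over all genes the shares called were 15.3% and 10.5%. Cib2, the most abundant gene of the list, was not called (log2 fold -0.10). Otof had 55.1, 56.2, 54.6 and 48.2 against 5.53, 3.17, 1.81 and 0 CPM, and 1001 ± 184 CPM in HC rule cells. In the other direction, the fibroblast marker Lum had 0, 13.2, 5.9 and 3.71 CPM in the vestibule and 160.3, 318, 188 and 338 CPM in the cochlea (adjusted p = 3.5e-08). The granulocyte markers, none of which was tested, summed to 2.75, 804, 17.7 and 3932 CPM in the vestibule and 27.6, 15.3, 0 and 2.21 CPM in the cochlea. The part of free RNA in these calls was not tested. All 3 hemoglobin genes lost the call without vestibular replicate 5. There the log2 fold of Hba-a1 fell to 0.42 from 4.14 and that of Hbb-bs turned to -0.067 from 3.99. They also lost it without cochlear replicate 4 or 5, where their median log2 fold was still 4.08 and 3.58, beside 3.99 in the reported fit. DESeq2 gave no p-value for any of the 3.

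Quality measures were set beside the comparison. Mitochondrial UMIs made up 9.97, 11.6, 5.07 and 10.1% of the UMIs in the vestibular supporting cells of replicates 1, 3, 4 and 5 and 6.02, 7.88, 3.39 and 5.75% in the cochlear cells. Ribosomal protein genes made up 13.6, 15.1, 17.6 and 12.1% and 17.2, 16.2, 17.5 and 17.2%. The HC genes, the 6 of the rule and 14 others, together stood at 459.8, 618, 649 and 690.0 CPM and 547, 376, 251 and 229.7 CPM. The organs overlapped in each of these 3 measures. Between libraries of the same replicate number, the mitochondrial share was higher in the vestibule every time. The ribosomal share was lower in the vestibule in replicates 1, 3 and 5 and nearly equal in replicate 4, at 17.55 against 17.54%. The HC genes went both ways. The test below did not use the replicate numbers. An exact two-sided permutation test of 4 against 4 libraries, which can reach 0.0286 at the lowest, gave p = 0.114 for the mitochondrial share, 0.143 for the ribosomal share, 0.0571 for the HC genes and 0.4 for the macrophage markers. Adjusted over the 4 measures by Benjamini-Hochberg, these were 0.19 for the first 3 and 0.4 for the last. Of the HC sum, the 6 genes of the rule made up 223, 276, 258 and 300 CPM in the vestibule. In the cochlea they made up 193, 189, 125 and 124 CPM. As the rule capped these genes in both organs, the p-values of the HC measure rest in part on values that chose the cells. No conclusion was drawn from them, and the adjustment includes that measure. The part of the 4 measures in the differences between the organs was not tested.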

How the data were processed

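The authors aligned the reads to mm10 and made the UMI counts with Cell Ranger (6.1.2 per the labels, whereas the file headers give 5.0.1 for replicates 1 and 2), and the deposited values are raw counts per gene and cell barcode, without normalization. The members and gene lists were chosen with earlier results of these data known. Barcodes under 200 genes, under 1000 UMIs or with 25% or more mitochondrial UMIs were dropped, and doublets were not removed. Counts of the cells that met the rule were summed per library (at least 10 cells) and tested in edgeR 4.0.16 (TMM, filterByExpr, quasi-likelihood test, Benjamini-Hochberg at 0.05), without covariates. The 12 genes of the rule stayed in the fit and out of all counts of genes called. Its 6 HC genes are part of the summed HC measure, and some rule genes are among the groups given to Dixon's test.

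Named between the organs were the 10 genes with the largest log2 fold in each direction among those past 0.05, without overlap of the libraries, at 20 CPM or more in the higher organ and not below the other cells there, and from each list up to 2 per direction and the most abundant gene. Some genes that this rule chose are not reported here. Other genes were named after their values were seen. Within the vestibule these were the 15 genes with the highest ratio (in at least 25% of cells) and the 10 most abundant. Subclusters came from Leiden clustering in scanpy 1.11.5 (2000 variable genes, 30 components, resolution 0.5) and were named by number. On simulated counts for this comparison, run on 6616 genes, 100% of the 196 tested genes that had been changed by 2 on the log2 scale were called, and 8.41% of 214 calls were unchanged genes, above the nominal 5%. Library totals ran from 2738036 to 26974948 UMIs in the libraries used, and 3 UMIs, the limit given to a count of 0, came to 1.19 CPM over the vestibular supporting cells and 0.974 CPM over the cochlear cells. Binomial intervals and limits cover counting error only. Gene positions are those of GENCODE M21. Alternatives were another normalization, DESeq2 1.42.0, a replicate block, no filter, other limits of the rule, deeper or thinned cells, a cochlear marker rule and leaving out each library.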

Additional observations from a re-analysis of the deposited data

Results flagged for a closer look

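In 36 of 212 groups of 4 libraries whose values are reported, 1 library stood apart from the other 3 by Dixon's test at 95%. In 8 of these groups 3 libraries were at 0, so that any UMI in the remaining library sets it apart, and without them the count was 28 of 204, where chance alone gives about 5%. In the vestibular supporting cells, replicate 1 was high for Otog (4105 CPM), Cntn1 (592 CPM) and Pdia6 (518 CPM). Replicate 3 was high for H2-K1 (667 CPM) and low for Zpld1 (34.7 CPM), and replicate 4 was high for Hmx3 (59.0 CPM). Replicate 5 was high for Hbb-bs (45773 CPM), Hba-a1 (15609.9 CPM), Mrc1 (59.4 CPM), Tcf7l2 (29.7 CPM) and Rorb (26.0 CPM). Of genes at 0 in the other 3 vestibular libraries, a few UMIs set 1 apart: Plbd1 (3.31 CPM), 9230102O04Rik (2.48 CPM), Rbp7 (0.827 CPM) and Fgfr3 (0.827 CPM) in replicate 3, Hamp2 (2.75 CPM) in replicate 1 and Dgkb (1.48 CPM) in replicate 4.

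In the cochlear cells of the same rule, replicate 1, with 22 cells, was high for Kcnj16 (1359 CPM), Slc12a7 (829 CPM), Gjb6 (718 CPM), Sox10 (414 CPM), Otog (354 CPM), Dgkb (155 CPM), Wwtr1 (82.9 CPM), Fzd7 (55.3 CPM) and Myo7a (16.6 CPM), and low for Itm2b (995 CPM). Replicate 3 was high for Ptgds (1030.0 CPM), the summed macrophage markers (16.9 CPM), D430041D05Rik (0.528 CPM) and Tecta (0.528 CPM), and low for Slc26a4 (3.17 CPM). Replicate 4 was high for Fos (312 CPM) and Sfrp1 (172 CPM), and replicate 5 for Sdf2l1 (72.9 CPM) and Bricd5 (13.2 CPM).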

How the results depend on the processing

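The counts of 1011 genes higher in the vestibular supporting cells and 692 higher in the cochlear cells stayed within 1.5 times under all alternatives but 2. Without a filter on low counts they were 1745 and 1174, of 17793 genes tested, and with each cell thinned to 1000 UMIs 212 and 166, of 1358 tested. Leaving out 1 library gave 867 to 1234 and 566 to 981, and leaving out subclusters 2 and 4, chosen after seeing the data, 920 and 616. The number of supporting cells was 252 among cells of at least 3000 UMIs and 299 below 10% mitochondrial UMIs, and lay between 379 and 825 under the other limits tried. The 4 library measures kept their direction under the 12 alternatives run for them, of which those with 3 libraries in one organ cannot reach a p under 0.0571. With at least 4 of the 6 genes, cochlear replicate 1 had 8 cells and left the fit.

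Of the 103 tested genes that the naming rule chose, 15 lost their call under at least 1 alternative. Signs turned in 10 values: Muc15 to -0.047 without the filter, -0.122 with at least 2 of 6 genes, -0.099 without vestibular replicate 5 and -0.148 without cochlear replicate 4, Bdh2 to 0.520 in thinned cells and 0.043 without subclusters 2 and 4, Hbb-bs to -0.544 with the replicate block and -0.067 without vestibular replicate 5, and Cib2 to 0.003 in cells of at least 3000 UMIs and 0.014 without vestibular replicate 1. Over the fits that left out 1 library, Muc15 ranged from -0.148 to 0.192, Hbb-bs from -0.067 to 4.712 and Cib2 from -0.228 to 0.014. The cause was not tested. Of these genes, Hbb-bs was called in the reported fit. Gm42418 lost its call under 8 alternatives, Rb1 under 7, Hbb-bs under 6, Malat1 and Hba-a1 under 5 each, and Kcnj16 and B2m under 4 each. The vestibular count of the identity genes was 5 without cochlear replicate 5, that of the immediate early genes 2 without cochlear replicate 1 or 5, and the cochlear count of the retinoid genes 2 without vestibular replicate 3 or cochlear replicate 1. Antigen presentation genes higher in the vestibule numbered 4 without vestibular or cochlear replicate 5 and 1 without cochlear replicate 4.

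With the replicate block the counts were 1161 and 872, hemoglobin genes called went from 3 to 0 and antigen presentation genes higher in the vestibule from 2 to 5 of 7. Libraries with the same number deviated together with correlations of 0.248, 0.193, 0.222 and -0.00842, so the numbers were not taken to pair the samples, although no pair with different numbers was above 0.104, and vestibular replicate 5 did not correlate best with its own number. Precision is limited by the 22 cells of cochlear replicate 1 and the 65 of vestibular replicate 5, and vestibular supporting cells were shallower than the cochlear cells. At a clustering resolution of 0.3, also chosen after seeing the data, the 4 subclusters shared 307, 97, 87 and 44 cells with the reported ones.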

Other observations

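The proliferation genes Mki67 and Top2a had UMIs in 2 and 3 of the 564 supporting cells. Their levels were 0, 6.61, 0 and 378 CPM and 0, 5.79, 0 and 167 CPM in replicates 1, 3, 4 and 5, so that most of their UMIs came from replicate 5, which also had the highest hemoglobin level. In all other kept vestibular cells, Mki67 was found in 2.47% and Top2a in 2.07%, against 0.355% and 0.532% of the supporting cells. Retnlg, a neutrophil gene, had a UMI in 6 supporting cells, at 0, 97.6, 1.48 and 378 CPM.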
